A study of Mus musculus with 4 samples.

Results

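The genes examined here are the 10 that encode the core of the microRNA processing and silencing machinery in mouse spermatogonial stem cells, namely Drosha, Dgcr8, Xpo5, Dicer1, Tarbp2, Prkra, Eif2c2 (argonaute 2, also written Ago2), Tnrc6a, Tnrc6b and Tnrc6c. They were listed by symbol for what their proteins do, with a rule that uses no measured value but with earlier results of these data known, and all 10 were found, each on 1 line, among the 22552 symbols of the expression tables. Spermatogonial stem cells are the self-renewing germ cells from which sperm production starts. RNA-seq was done on single-cell clones of such cells in which the gene of the microRNA miR-202 can be knocked out by adding doxycycline. The groups were 2 libraries of cells kept with 10 µg/ml doxycycline for 2 days and 2 libraries of cells kept without it, after a night on laminin. All 4 carry the labels testes, DBA/C57 F1, male, 5 to 7 days of age and genotype wild type, and the design names 2 clones, each used in both conditions. The titles do not tie a replicate number to a clone, so the match of equal numbers to 1 clone is an assumption. Doxycycline was given to the knockout-induced cells only, so effects of the drug and of the loss of miR-202 cannot be told apart here.

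MicroRNAs are made in steps. In the nucleus the Microprocessor, the RNase III enzyme Drosha with its RNA-binding partner Dgcr8, cuts a hairpin out of the primary transcript, and exportin 5 (Xpo5) carries it to the cytoplasm. There Dicer1 cuts off the loop, helped by the double-stranded RNA-binding proteins Tarbp2 and Prkra, and 1 strand is loaded into an argonaute protein. The argonaute finds target mRNAs through the seed, the bases near the 5′ end of the microRNA, and the TNRC6 scaffold proteins bound to it recruit the enzymes that shorten poly(A) tails and repress translation. In mice, germ cells need this pathway for normal sperm production.

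The sequences below show the seeds through which the targeted microRNA, miR-202, would find its targets, beside let-7a as an example of the related let-7 family. The seed, bases 2 to 8 counted from the 5′ end, is in capitals (RefSeq, GRCm38.p6).
mmu-miR-202-3p: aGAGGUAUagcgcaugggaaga
mmu-miR-202-5p: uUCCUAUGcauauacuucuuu
mmu-let-7a-5p: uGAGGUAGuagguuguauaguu
The 3p arm lies at chr7:139957695-139957716 and the 5p arm at chr7:139957732-139957752, both on the minus strand. Bases 2 to 7 of the 3p arm, GAGGUA, are shared with 12 other mature mouse microRNAs in the table, most of them of the let-7 family, and 1 of these, let-7j, shares bases 2 to 8 as well, whereas no other entry shares bases 2 to 7 of the 5p arm.

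Matches to the miR-202-3p seed were present in the longest annotated 3′ UTR (GENCODE M21) of 4 of the 10 genes, Dicer1, Eif2c2, Tnrc6a and Tnrc6b. A match was ATACCTC, complementary to bases 2 to 8, or TACCTCA, complementary to bases 2 to 7 and followed by A, on the transcript strand; the letters overlap, and a stretch holding both counted once. The sites are printed because these genes code for the proteins through which miR-202 itself would act, with the matching letters in capitals.
Dicer1 site: ttgcactgtgactataATACCTCt
Tnrc6a site: ctagtgttaacctctcATACCTCA
Tnrc6b site: tgtctgacacaaaatgATACCTCA
Eif2c2 site 1: cttttacaatgtggatcTACCTCA
Eif2c2 site 2: gatgaaatttacacaggTACCTCA
In GRCm38 the Dicer1 stretch lies at chr12:104690336-104690359 (minus strand), the Tnrc6a stretch at chr7:123194891-123194914 (plus), the Tnrc6b stretch at chr15:80938516-80938539 (plus), and the Eif2c2 stretches at chr15:73097982-73098005 and chr15:73096738-73096761 (minus). The same match occurred in 14.03% of the 11531 tested genes with an annotated 3′ UTR, and in 43.0% of those with a 3′ UTR of 4000 bases or more. The UTRs of Eif2c2 and Tnrc6b, at 11064 and 11609 bases, belong to that long class, while those of Dicer1 and Tnrc6a measure 3851 and 2345 bases, a class (2000 to 4000 bases) in which 24.1% of genes had a match. Drosha, with a 3′ UTR of 169 bases, Dgcr8, Xpo5, Tarbp2, Prkra and Tnrc6c held none of these letters. For the 5p arm the letters CATAGGA or ATAGGAA were found in Eif2c2, Tnrc6a and Tnrc6b, 3 of the 10, against 15.7% of all tested genes, 51.0% of those with a 3′ UTR of 4000 bases or more (Eif2c2 and Tnrc6b) and 28.1% of those with one of 2000 to 4000 bases (Tnrc6a). In Eif2c2 site 1 the letter before the capitals is c, so the stretch is complementary to bases 2 to 8 of let-7a. For miR-202-3p it is complementary to bases 2 to 7 only. A match is a string of letters and was not tested as a site.

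The values are FPKM, fragment numbers divided by the length of the transcript and by the size of the library, so levels can be compared between genes. Such a comparison rests on the annotated transcript lengths, which are not known here. Library sums ran from 313981 to 320243 FPKM with doxycycline and from 309153 to 314507 FPKM without it. From ratios among the lowest values, the depth of doxycycline replicates 1 and 2 was estimated at 1 and 1.23 and that of untreated replicates 1 and 2 at 1.33 and 1.55 in relative units, so the doxycycline library was the shallower of each same-numbered pair. Mir202, the targeted gene (chromosome 7, 147143588 to 147143659, mm9), was listed at 0 FPKM in all 4 libraries, as were all 605 microRNA symbols, so neither the knockout nor the labelling could be checked with it. The germ cell identity of the libraries was checked on 12 spermatogonial markers, all of them above 1 FPKM, whose summed level was 957.5 and 911 FPKM with doxycycline and 940 and 933 FPKM without it. Sums over 8 feeder fibroblast markers were 104 and 91.6 FPKM against 100.2 and 78.0, and over 8 Sertoli markers 8.58 and 9.80 FPKM against 7.54 and 7.76. Of the Sertoli markers, 5 averaged under 1 FPKM (Amh, Gata4, Cldn11, Fshr and Inha), and the 3 above it, Sox9, Clu and Wt1, had log2 changes of 0.26, 0.24 and -0.0034, none called. The 8 feeder markers had a median log2 change of 0.16. Of these 8, 5 were higher with doxycycline in both same-numbered pairs, as were 3911 of all 11924 tested genes. Thy1, also a surface marker of spermatogonia, passed with the replicate number as a block (log2 change 0.30, limma adjusted p = 0.123, and 0.0312 with the block). Among the spermatogonial markers Utf1 passed with the block (log2 change -0.30, limma adjusted p = 0.215, and 0.0479 with the block). With the block 2.73% of all tested genes were called higher and 0.973% lower. The sums over 8 macrophage and blood markers were 5.26 and 5.85 FPKM against 5.19 and 5.05, with Hbb-b1 and Tyrobp at 0 throughout, and those over 7 Leydig and peritubular markers 8.09 and 12.6 FPKM against 11.6 and 13.7, most of it Acta2. The part of these other cells in the results below was not tested.

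All 10 genes were expressed, at levels that spanned 21.6-fold between Drosha, with a mean of 129 FPKM over the 4 libraries, and Prkra, with 5.96 FPKM. Drosha stood at percentile 97.4 of the 11924 tested genes, those that averaged at least 1 FPKM, and Prkra at percentile 32.3. Tnrc6c followed Drosha with a mean of 43.9 FPKM. Below it came Xpo5 (27.8 FPKM), Tarbp2 (27.5 FPKM), Dicer1 (20.9 FPKM), Tnrc6b (19.4 FPKM), Tnrc6a (16.2 FPKM), Dgcr8 (13.9 FPKM) and Eif2c2 (7.08 FPKM). The order was the same in each library apart from Xpo5 and Tarbp2, of which Tarbp2 was the higher in both doxycycline libraries and Xpo5 in both untreated ones. Between neighbours in this order the ranges over the 4 libraries overlapped for Xpo5 and Tarbp2, which did not differ in level beyond their spread, and for Dicer1 and Tnrc6b, although Dicer1 was the higher of these in each library. The ranges of the other neighbours did not overlap.

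**Figure D1:**
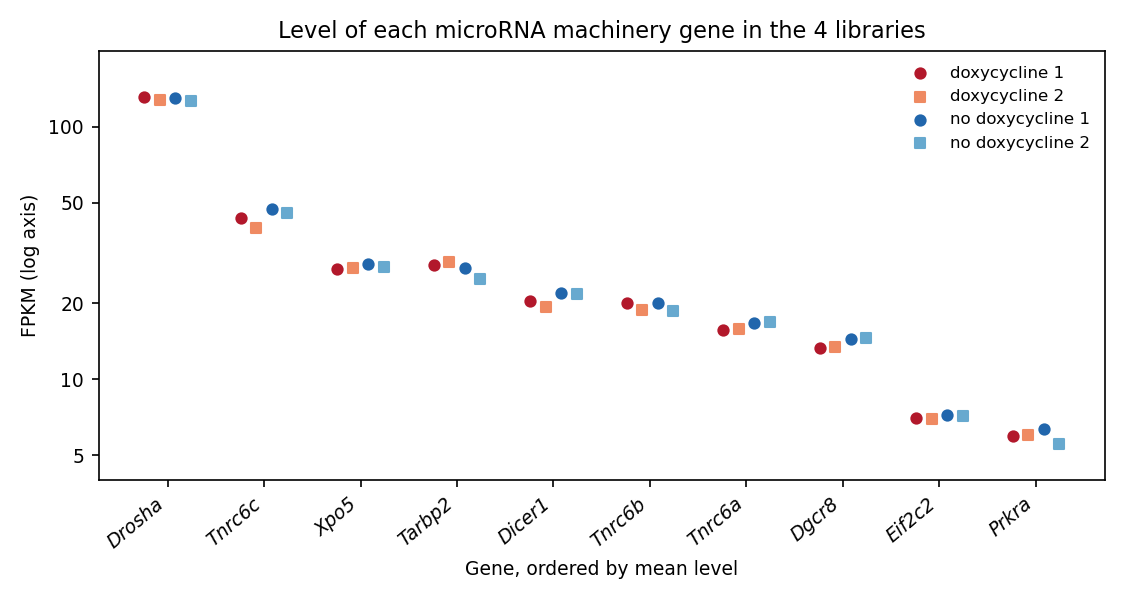
FPKM of the 10 microRNA machinery genes (log axis) in the 2 doxycycline libraries (red and orange) and the 2 untreated libraries (blues), 1 point per library. The full span of the genes, from about 129 FPKM for Drosha to 5.96 FPKM for Prkra, is far wider than the spacing between libraries of 1 gene. The ranges of the neighbours Xpo5 and Tarbp2 overlap, as do those of Dicer1 and Tnrc6b.

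None of the 10 genes passed the test for a change with doxycycline. Limma on log2(FPKM + 1), adjusted by Benjamini-Hochberg over all 11924 genes at a threshold of 0.05, called 0.277% of them, and for the 10 the adjusted p lay between 0.294 and 0.971. With the replicate number as a block 3.70% of genes were called and again none of the 10, the lowest adjusted p being 0.0885, for Tnrc6c. At an unadjusted p under 0.05 there were 2, Tnrc6c and Dicer1, both lower with doxycycline, where 6.63% of all genes were lower by that measure. Over the 10 genes the 95% intervals of the change, each for a single gene, reached no further than 1.22-fold lower (Tnrc6c) and 1.21-fold higher (Tarbp2) on the FPKM + 1 scale. A miss of the threshold does not show that the levels were equal, and 2 libraries a group limit what could be called. Each p-value reflects only how far these 4 libraries of 2 clones scatter. In bulk RNA, fewer cells of a type and less RNA per cell cannot be told apart.

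The changes were small and mostly to the lower side. The 10 genes had a median log2 change of -0.04, against -0.0022 over all tested genes. In 6 of them, Tnrc6c, Dicer1, Dgcr8, Tnrc6a, Eif2c2 and Xpo5, both doxycycline libraries lay below both untreated ones, a pattern that 24.9% of all tested genes showed. Tarbp2 was the only 1 of the 10 with both doxycycline libraries above both untreated ones, against 23.5% of all genes. For Drosha, Tnrc6b and Prkra the groups overlapped. No set test was made on these counts, and the part of the lower depth of the doxycycline libraries in them was not tested.

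**Figure D2:**
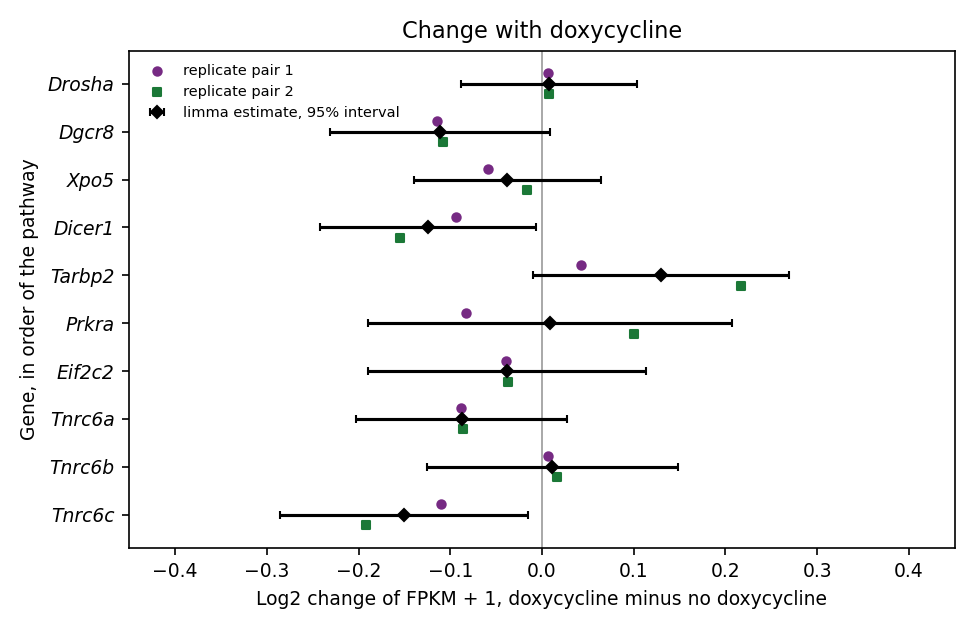
Log2 change of FPKM + 1 with doxycycline against no doxycycline for each gene. Diamonds with bars give the limma estimate over 2 against 2 libraries and its 95% interval, and coloured points the difference within each same-numbered pair. Intervals of Dicer1 and Tnrc6c lie below 0 before adjustment for the number of genes, and those of the other 8 include 0.

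Among the nuclear genes, Drosha (chromosome 15, 12754570 to 12865046, mm9) was at 130.9 and 127.5 FPKM with doxycycline, against 130.3 and 126.8 FPKM without it. The order of the libraries followed the replicate number and not the drug. Its log2 change was 0.0074 ± 0.0396 (SE) and its 95% interval ran from -0.089 to 0.10 (limma adjusted p = 0.948), and the sign of the estimate turned under quantile normalization and under equal library totals.

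Dgcr8, the partner that Drosha needs to recognise its hairpins (chromosome 16, 18254058 to 18289261), had 13.3 and 13.4 FPKM with doxycycline, against 14.5 and 14.5 FPKM without it. Replicates were nearly identical in both groups, and the groups did not overlap. The log2 change was -0.11 ± 0.05 (SE), at -0.11 in each pair, and limma's adjusted p was 0.357. The Dgcr8 locus overlaps that of Trmt2a, a tRNA methyltransferase gene, at 7.66 and 7.33 FPKM with doxycycline against 8.37 and 8.65 FPKM without it. Whether counting used strand is not given in the sources used here, so reads of the overlapping stretch could be shared. Within a library, the level of Drosha was 9.84 and 9.53 times that of Dgcr8 with doxycycline, against 9.0 and 8.75 times without it.

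Xpo5, the export receptor for the precursor hairpin (chromosome 17, 46339804 to 46379248), was at 27.3 and 27.5 FPKM with doxycycline, against 28.5 and 27.8 FPKM without it. The lowest untreated library and the highest doxycycline library lay close together, and the log2 change was -0.04 ± 0.04 (SE; limma adjusted p = 0.708).

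In the cytoplasm, Dicer1 (chromosome 12, 105925952 to 105990162) had 20.5 and 19.4 FPKM with doxycycline, against 21.9 and 21.7 FPKM without it. Both doxycycline values lay below both untreated ones. Means were 19.9 ± 0.753 FPKM with doxycycline and 21.8 ± 0.131 FPKM without it (SD, n = 2 each), a ratio of 0.914. On the log2 scale the change was -0.12 ± 0.05 (SE), at -0.09 in replicate 1 and -0.16 in replicate 2, with a limma p of 0.0412 before adjustment and 0.313 after it.

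Tarbp2, a cofactor of Dicer1 in strand loading (chromosome 15, 102348677 to 102354107), pointed the other way, at 28.5 and 29.2 FPKM with doxycycline, against 27.6 and 25.0 FPKM without it. The gap came mainly from untreated replicate 2, without which the log2 change was 0.06. Its log2 change was 0.13 ± 0.06 (SE), at 0.04 in replicate 1 and 0.22 in replicate 2, smaller than the difference of 0.14 between the untreated libraries, and limma's adjusted p was 0.355. Tarbp2 mRNA stood at 1.39 and 1.503 times the level of Dicer1 mRNA with doxycycline, against 1.26 and 1.15 times without it. That these ratios did not overlap between the groups follows from the values of the 2 genes, which separated in opposite directions. It is not a further result. The ratio was formed after the values had been seen and was not tested.

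Prkra, the other RNA-binding cofactor, known in human cells as PACT (chromosome 2, 76467994 to 76486051), was at 5.95 and 5.998 FPKM with doxycycline, against 6.36 and 5.53 FPKM without it. The untreated libraries lay on both sides of the treated ones. Its log2 change was 0.0086 ± 0.08 (SE; limma adjusted p = 0.971), at -0.083 in replicate 1 and 0.10 in replicate 2, and the sign turned under equal library totals. Prkra was the lowest of the 10 genes and had the widest deposited bounds relative to its value. The authors' bounds for doxycycline replicate 1, the only library that has them, were 5.06 and 6.84 FPKM, a half-width of 15.0% of the value. Eif2c2, the next lowest gene, had a half-width of 5.66%, and the reason for the difference was not tested. The half-widths of the other 9 genes ran from 1.76% for Drosha to 6.44% for Tarbp2. These bounds describe 1 library: the second doxycycline library fell inside them for 6 of the 10 genes, with Drosha, Tnrc6c, Dicer1 and Tnrc6b outside, whereas untreated replicates 1 and 2 fell inside for 5 and 3 genes.

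Argonaute 2 (Eif2c2, chromosome 15, 72932055 to 73015377), the argonaute that cuts fully paired targets, had 7.02 and 6.93 FPKM with doxycycline, against 7.24 and 7.13 FPKM without it. The lower untreated value lay just above the higher doxycycline value, and the log2 change was -0.04 ± 0.06 (SE; limma adjusted p = 0.814). By FPKM the Eif2c2 mRNA was not the highest among the argonaute genes, and protein was not measured here. Eif2c1 (argonaute 1) was at 13.8 and 14.3 FPKM with doxycycline, against 14.6 and 15.0 FPKM without it, and its log2 change was -0.07 (limma adjusted p = 0.567). Eif2c1 made up 55.9% and 57.3% of the summed FPKM of the argonaute genes with doxycycline, against 54.5% and 55.1% without it, and Eif2c2 28.5% and 27.7%, against 27.0% and 26.3%.

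Eif2c3 (argonaute 3) had the largest difference among the argonautes, at 3.33 and 3.04 FPKM with doxycycline, against 4.28 and 4.27 FPKM without it. That is a ratio of 0.746 and a log2 change of -0.33 ± 0.08 (SE), which did not pass (limma adjusted p = 0.172, and 0.0590 with the block). Its share of the argonaute sum was 13.5% and 12.2% with doxycycline, against 15.9% and 15.7% without it. Eif2c4, at 0.509 and 0.709 FPKM with doxycycline against 0.695 and 0.768 FPKM without it, was too low to be tested.

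**Figure D3:**
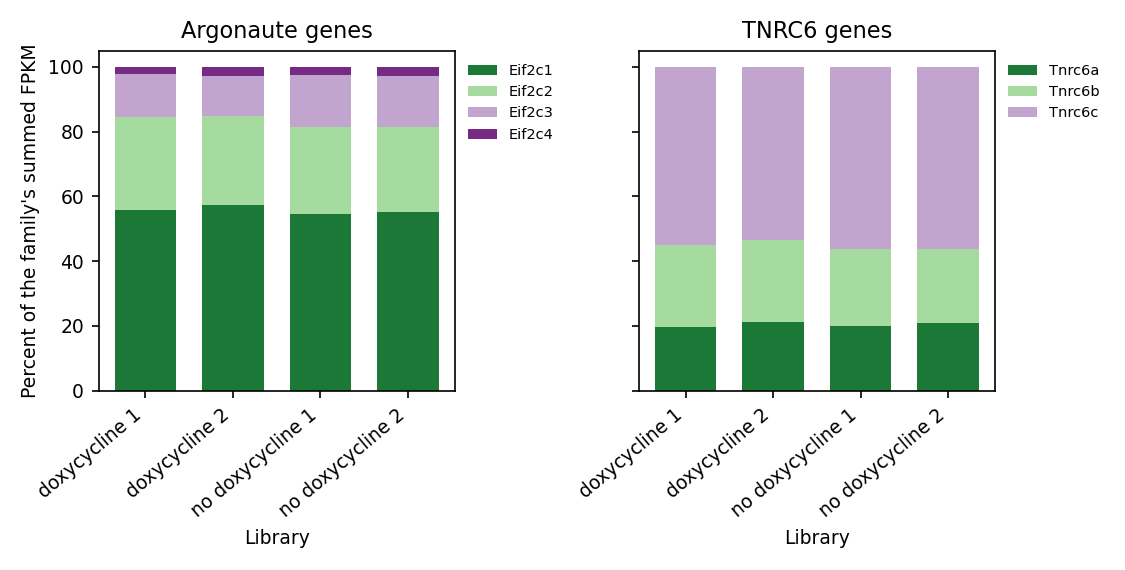
Share of each member in the summed FPKM of the argonaute genes (left) and of the TNRC6 genes (right), in percent, with the 2 doxycycline libraries left of the 2 untreated ones. Eif2c1 makes up more than 54% of the argonaute sum and Tnrc6c more than 53% of the TNRC6 sum in every library.

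The 3 TNRC6 genes code for scaffolds that link argonautes to the deadenylases, and together they stood at 79.2 and 74.3 FPKM with doxycycline, against 83.7 and 80.9 FPKM without it. Tnrc6c (chromosome 11, 117515603 to 117624753) had the largest estimated change of the 10 genes over all 4 libraries, at 43.6 and 39.6 FPKM with doxycycline, against 47.1 and 45.4 FPKM without it. All doxycycline values were below all untreated ones, although the 2 doxycycline libraries differed from each other by 0.14 on the log2 scale. Means were 41.6 ± 2.82 FPKM with doxycycline and 46.3 ± 1.22 FPKM without it (SD, n = 2 each), and the log2 change was -0.15 ± 0.06 (SE), at -0.11 in replicate 1 and -0.19 in replicate 2. That size and rank rested on single libraries: without doxycycline replicate 2 the change was -0.083, smaller than that of Dgcr8 at -0.12, and without untreated replicate 1 it was -0.12, smaller than that of Tarbp2 at 0.20. The limma p was 0.0340 before adjustment and 0.294 after it. A change of this size or larger in either direction was seen in 19.6% of all tested genes.

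Tnrc6a (chromosome 7, 130267399 to 130338810) was at 15.6 and 15.8 FPKM with doxycycline, against 16.7 and 16.8 FPKM without it. The groups did not overlap, and the difference exceeded that between replicates, with a log2 change of -0.09 ± 0.05 (SE; limma adjusted p = 0.433). Tnrc6b (chromosome 15, 80541743 to 80771516) was at 20.03 and 18.9 FPKM with doxycycline, against 19.9 and 18.6 FPKM without it. Here replicate 1 was the higher in both groups, and the log2 change was 0.01 ± 0.06 (SE; limma adjusted p = 0.944), with a sign that turned under equal library totals. Tnrc6c supplied 55.0% and 53.3% of the TNRC6 sum with doxycycline, against 56.3% and 56.1% without it, and Tnrc6b 25.3% and 25.4%, against 23.8% and 23.1%. In every library the TNRC6 sum was about 3 times the argonaute sum, with ratios of 3.22 and 2.97 with doxycycline, against 3.12 and 2.98 without it.

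The 4 genes with a miR-202-3p seed match printed above, Dicer1, Tnrc6a, Tnrc6b and Eif2c2, had log2 changes with doxycycline of -0.12, -0.09, 0.01 and -0.04. None of them passed the test in either direction. Over the 11531 tested genes with an annotated 3′ UTR the median log2 change was -0.0088 with such a match and -0.00040 without one. For the 5p arm these medians were -0.012 and 0.00027. Genes with a longer 3′ UTR held a match more often, and the part of UTR length in these medians was not tested.

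Genes that work beside the core machinery, and transcripts that host microRNAs, were read from the same fit, 85 of 88 listed being tested. Of these 85, 17 were host transcripts, listed for the microRNA they carry and not for a part in the pathway. None passed over all genes, and their median log2 change was -0.01. At an unadjusted p under 0.05, 4 of the 85 were higher, against 8.46% of all tested genes, and 10 were lower, against 6.63%. Host transcripts made up 3 of these 4 and 2 of these 10. With the block 3 passed, 1 higher and 2 lower, where 2.73% of all tested genes were called higher and 0.973% lower. Host transcripts among these 3 were H19 and Ctdsp1, of which Ctdsp1 was outside the naming rule and is named after its values were seen.

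Of 14 Microprocessor cofactors the largest changes were those of Hnrnpa1, which binds the hairpin of some primary transcripts, and Khsrp, which promotes let-7 maturation. Hnrnpa1 was at 144 and 127 FPKM with doxycycline, against 121 and 121 FPKM without it, with a log2 change of 0.16 (limma adjusted p = 0.309). Khsrp was at 45.7 and 46.0 FPKM with doxycycline, against 49.3 and 49.6 FPKM without it, with a log2 change of -0.11 (limma adjusted p = 0.267). The list had a median of -0.0040.

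The 8 genes of precursor control and end modification had a median of -0.07. Trim71, the LIN41 protein that is itself a classical let-7 target, was at 64.8 and 60.3 FPKM with doxycycline, against 74.1 and 70.0 FPKM without it. Its log2 change was -0.20 ± 0.05 (SE; limma adjusted p = 0.198), and it fell with the block (adjusted p = 0.0322). Dis3l2, the exonuclease that degrades uridylated let-7 precursors, was at 4.18 and 4.29 FPKM with doxycycline, against 4.83 and 4.82 FPKM without it (log2 change -0.15, limma adjusted p = 0.372).

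Among 11 tested genes of argonaute loading and turnover, whose median was 0.03, the HSP90 co-chaperone gene Fkbp4 and Tsn had the largest changes, at 0.10 and 0.07, with limma adjusted p of 0.393 and 0.447. The 18 genes listed under deadenylation, not all of which code for enzymes, had a median of -0.02. Cnot3, a subunit of the CCR4-NOT complex, was at 28.0 and 28.1 FPKM with doxycycline, against 31.4 and 32.1 FPKM without it (log2 change -0.17, limma adjusted p = 0.173), and Tnks1bp1 had a log2 change of -0.15 (limma adjusted p = 0.272). Of 15 genes of decapping, decay and translational repression, with a median of -0.02, the decapping cofactor gene Dcp1b and the exonuclease gene Xrn1 had log2 changes of -0.19 and -0.08 (limma adjusted p = 0.299 and 0.628).

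The 17 tested transcripts that host microRNAs had log2 changes between -0.21 and 0.29 and a median absolute change of 0.12, against 0.07 over all tested genes. H19, the imprinted RNA that carries miR-675, came closest to a call, at 59.4 and 60.1 FPKM with doxycycline, against 49.2 and 48.5 FPKM without it. That is a ratio of 1.22 and a log2 change of 0.29 ± 0.04 (SE; limma adjusted p = 0.0578), and it rose with the block (adjusted p = 0.0115). Rian, from the imprinted Dlk1 to Dio3 region, was at 8.13 and 7.39 FPKM with doxycycline, against 6.80 and 5.99 FPKM without it (log2 change 0.25, limma adjusted p = 0.267). Ctdsp1, a phosphatase gene with a miR-26 hairpin in an intron, was at 39.8 and 38.8 FPKM with doxycycline, against 45.9 and 45.2 FPKM without it. Its log2 change was -0.21 (limma adjusted p = 0.118), and it fell with the block (adjusted p = 0.0338). Mir17hg, the host of the miR-17 to miR-92 cluster, was at 6.24 and 5.77 FPKM with doxycycline, against 5.98 and 5.92 FPKM without it.

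**Figure D4:**
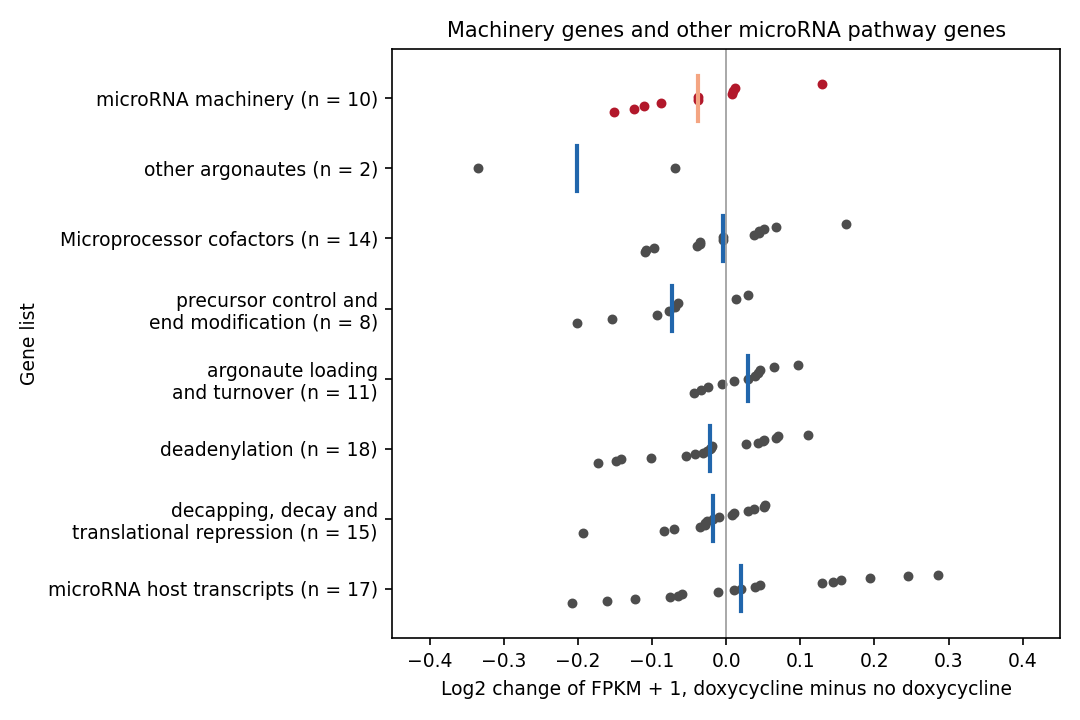
Log2 change of FPKM + 1 with doxycycline against no doxycycline for the 10 machinery genes (red) and the tested genes of 7 other lists (grey), 1 point per gene, with each list's median as a vertical bar. The machinery genes lie between -0.15 and 0.13, and the microRNA host transcripts between -0.21 and 0.29.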

How the data were processed

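Libraries of TRIzol-extracted total RNA were run on a HiSeq4000, per the labels' protocols. The deposited values are FPKM per gene in the layout of Cufflinks, 1 table per library, per the file headers. The submitters' processing notes list TopHat2 2.0.6, Cufflinks 2.0.2, Cuffdiff and mm9, with no role or order. No source used here gives the annotation or the strand setting, and read counts are unknown. Relative depth came from ratios among 677 genes under 0.1 FPKM, of which 69.3% to 72.5% fell within 1% of ratios of whole numbers up to 6. Because FPKM are scaled for length and mapped fragments by the authors, a few very abundant transcripts can shift all other values.

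For 259 symbols with several lines the FPKM were added up. Genes averaging at least 1 FPKM were tested with limma 3.58.1 (R 4.3.3, Python 3.11.15) on log2(FPKM + 1) with an intensity trend, two-sided, Benjamini-Hochberg threshold 0.05. Log2 changes are on that scale and understate those of low genes. Residual degrees of freedom were 2, or 1 with the replicate block, to which moderation added 4.23 or 6.21. The block assumes that same-numbered libraries are the same clone: the design text names 2 clones, but no label ties them to the numbers. With only 2 pairs, deviations of same-numbered libraries from the group means correlated at 0.215 across genes. Limma's script was tested on simulated data. Loci, in mm9, are from the table of doxycycline replicate 1, with starts raised by 1 to count from 1. Seed matches used GENCODE M21 (96.7% of tested symbols had a 3′ UTR there) and RefSeq sequences (GRCm38.p6), a different build from mm9. The 10 genes and the lists were chosen with earlier results of these data known. Named from each of the 7 other gene lists were the members past the threshold and the 2 with the largest absolute change. Mir17hg, Ctdsp1, Trmt2a and Eif2c4 were added after their values were seen. For the cell type markers this rule was not followed, and several were named outside it. Markers that it covers but that were left out above are Nanos2, Lum and Cd68 (log2 changes -0.15, 0.28 and 0.15, none called). Alternatives tried were 2 pseudocounts, 2 filters, the replicate block, 2 scalings, 2 variance settings, the highest line of each symbol, and leaving out each library.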

Additional observations from a re-analysis of the deposited data

Results flagged for a closer look

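Prkra moved in opposite directions in the same-numbered pairs, with a log2 change with doxycycline of -0.083 in replicate 1 and 0.10 in replicate 2. The difference between the pairs was not tested, since each holds 1 library a condition. The untreated libraries of this gene differed by 0.17 on the log2 scale, the widest replicate difference among the 10 genes. Its deposited bounds were also the widest relative to the value.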

How the results depend on the processing

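None of the 10 machinery genes was called in any of the 14 alternatives, and their median log2 change, -0.04, ran from -0.07 to -0.03. Tnrc6c, Dicer1, Dgcr8, Tnrc6a, Eif2c2, Xpo5 and Tarbp2 kept their direction in all 14. Estimates near 0 turned sign: with equal library totals Drosha was at -0.017, Prkra at -0.012 and Tnrc6b at -0.012, with quantile normalization Drosha was at -0.032, and with single libraries left out the estimates ran from -0.012 to 0.027 for Drosha, -0.078 to 0.095 for Prkra and -0.035 to 0.057 for Tnrc6b. Over all genes, 33 were called as reported, 441 with the replicate block, 88 with a minimum of 5 FPKM, 52 with equal library totals, 1 with no filter on low values, 2 with no variance trend and 2 to 60 with single libraries left out. The count was 60 when doxycycline replicate 1 was dropped, 5 for doxycycline replicate 2, 5 for untreated replicate 1 and 2 for untreated replicate 2. Of the 85 other listed genes, 3 were called with the replicate block (Trim71 and the host transcripts Ctdsp1 and H19) and 1 with a minimum of 5 FPKM (H19, limma adjusted p = 0.0375). Of the cell type markers named here, Thy1 and Utf1 were also called with the block and not without it. The block changed no other call named here. The cause of these shifts was not tested.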
